A study of Cavia porcellus with 18 samples.

Results

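Head-to-head gene pairs, in which one gene on the minus strand and one on the plus strand start close together and are read in opposite directions, were examined in the hippocampus of the guinea pig (Cavia porcellus). A pair was taken where the listed transcription start sites of 2 distinct genes lay at most 1000 bases apart on one scaffold, with the minus-strand start at or left of the plus-strand start. The rule used positions only. It found 241 pairs of 474 genes, out of 19244 genes in the deposited table of CG sites. The members are the 805 distinct CG sites within 1000 bases of either start of a pair, out of 167387 CG sites in the table. These sites lay at 176 of the pairs, 115 pairs had at least 3 of them, and 65 pairs had none. Of the 241 pairs, 7 were on the mitochondrial sequence, where no member site was measured, and the other 234 lay on nuclear scaffolds.

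A stretch of DNA that starts transcription in both directions is called a bidirectional promoter. In human and mouse such promoters are common, often lie in CG-rich DNA that carries little methylation, and often serve pairs of genes needed in most cell types. H3K4me1 is a histone mark found at enhancers and on the flanks of promoters, and RNA polymerase II phosphorylated on serine 5 (Pol II PS5) is the form found where transcription is initiated.

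The tissue came from 3 wild type male guinea pigs of 12 weeks. ChIP-bisulfite (3 libraries) joins ChIP for H3K4me1 to bisulfite sequencing and so reads methylation on DNA precipitated with the mark. Reduced representation bisulfite sequencing (RRBS, 6 libraries, with reads of 50 and 100 bases) reads it near restriction sites in all chromatin. Peaks came from H3K4me1 and Pol II PS5 ChIP-seq (3 libraries each), and 3 RRBS digestion controls without bisulfite were not used here. Each deposited value pooled the 3 animals. There is no spread between animals, no test could compare them, and every SD below is a spread over gene pairs or over genes. Differences between pairs and other genes are therefore given as values side by side and were not tested. The tissue is a mixture of cell types, so a lower share of cells with a state and a lower level in each cell cannot be told apart. The files do not pair gene IDs with names, and starts are given by scaffold and position as the files list them, on a build not named in the sources used here.

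The RRBS level of a member site rested on a median of 16 reads, with a range of 10 to 122. A count of 0 among 16 reads allows a level of up to 18.8% (3 reads of the total, counting error only). The depth of ChIP-bisulfite at a site is unknown. Every one of the 805 member sites lay in an H3K4me1 peak. The share over all sites of the table is not given here. All of those sites may lie in such peaks, so this is not read as a trait of pairs. Another member lay 1 base away for 132 of them (16.4%), so nearby sites are not independent.

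DNA between the 2 starts was almost free of methylation. Over the 41 pairs with sites there, the mean level was 1.103% ± 4.997 in ChIP-bisulfite and 3.81% ± 10.5 in RRBS (SD over pairs), and the median pair was at 0% in both assays. At sites with at least 20 RRBS reads the means between starts were 0% and 1.78%. Methylation was higher with distance into either gene. From the starts to 250 bases inside a gene it averaged 8.89% ± 19.5 in ChIP-bisulfite and 10.99% ± 21.3 in RRBS (47 pairs). At 250 to 500 bases the means were 11.7% ± 28.6 and 12.8% ± 28.8 (72 pairs). Farther in, at 500 to 1000 bases, ChIP-bisulfite averaged 32.0% ± 34.0 and RRBS 31.5% ± 31.8 (133 pairs), with medians of 19.7% and 20%.

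**Figure D1:**
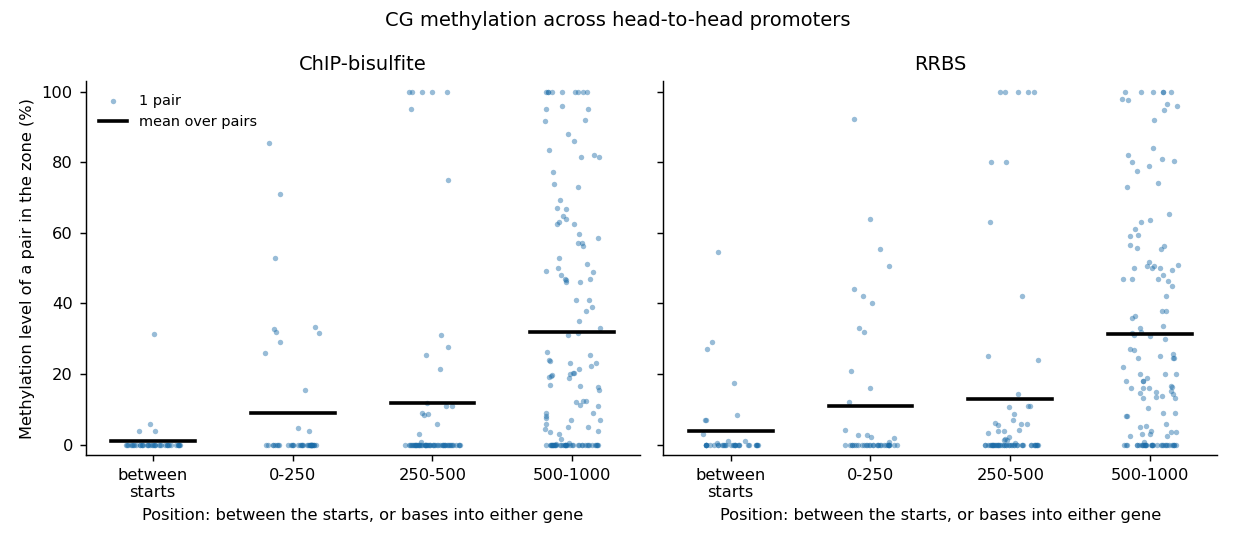
Mean methylation level of each head-to-head pair by zone, for ChIP-bisulfite (left) and RRBS (right). Each point is 1 pair and each black line is the mean over pairs. Most points between the starts lie at 0, and points spread over the whole scale at 500 to 1000 bases into either gene.

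Single sites gave the same picture. Both assays were at 0% for 84.96% of the 113 sites between starts (95% exact binomial interval 77.0 to 90.98, counting error only), for 78.0% of 141 sites at 0 to 250 bases, for 71.96% of 189 sites at 250 to 500 bases and for 33.1% of 363 sites at 500 to 1000 bases. Levels of 70% or more in RRBS were found at 1 site between starts and at 73 sites beyond 500 bases. In the 33 pairs with sites both between and outside the starts, the mean outside was 25.5% in ChIP-bisulfite and 28.2% in RRBS, against 1.07% and 4.74% between the starts. By ChIP-bisulfite the outside was higher in 23 of these pairs and lower in 2, and by RRBS it was higher in 21 and lower in 6. The pair differences averaged 24.4 points (SD 31.4) and 23.5 points (SD 37.5). Sites outside reach up to 1000 bases from a start, farther than any site between starts can lie. Position and distance from a start therefore cannot be told apart in this contrast, and no contrast at matched distance was made.

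Averaged over all member sites of a pair, the level was 19.3% ± 25.4 in ChIP-bisulfite and 20.3% ± 25.1 in RRBS (SD, 176 pairs), with medians of 7.21% and 10.1%. These values were set beside those of 18334 genes with a single start, defined as having no other listed gene start within 1000 bases on either strand. At the 6617 single starts with sites, the means were 33.2% ± 38.0 and 37.4% ± 35.5, with medians of 14.7% and 27%. Pairs minus single starts came to -13.9 points for ChIP-bisulfite and -17.1 points for RRBS. The size of the gap rests on the sites used. With at least 3 sites required, pairs averaged 19.2% and 19.6% against 23.8% and 27.3% at single starts, which leaves -4.63 and -7.70 points. Within 250 bases of a start the means were 5.98% and 7.50% in pairs against 31.8% and 37.2% at single starts, which gives -25.9 and -29.7 points.

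**Figure D2:**
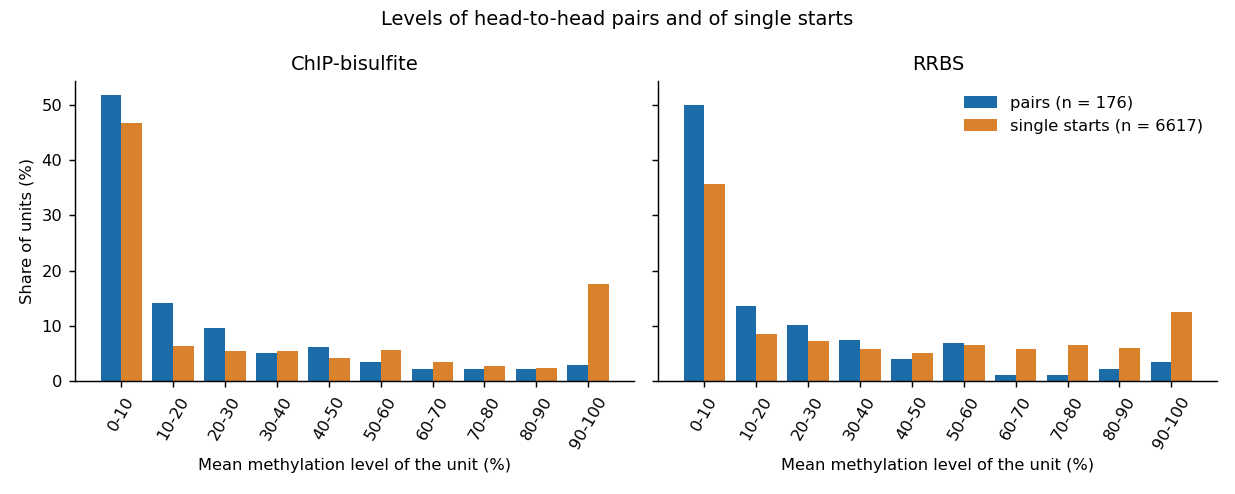
Share of head-to-head pairs (blue) and of single starts (orange) by mean methylation level in steps of 10%, for ChIP-bisulfite (left) and RRBS (right). The lowest step holds 51.7% of pairs and 46.7% of single starts in ChIP-bisulfite and 50% and 35.7% in RRBS, and the highest step holds 2.84% of pairs and 17.7% of single starts by ChIP-bisulfite, against 3.41% and 12.5% by RRBS.

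A mean of 70% or more in RRBS was found in 5 of the 115 pairs with at least 3 sites (4.35%, 95% exact binomial interval 1.43 to 9.85). The same held for 12.4% of all genes with at least 3 sites and for 12.9% of single starts. At the other end, 54 pairs (47.0%) were at 10% or less in RRBS, against 42.9% of all genes and 42.0% of single starts. In ChIP-bisulfite the order was the other way, with 50 pairs (43.5%) at 10% or less, against 48.2% of all genes and 48.0% of single starts. At 70% or more it had 6 pairs (5.22%, 1.94 to 11.0), against 9.54% of all genes and 9.87% of single starts. No methylation at any site in either assay was measured in 12 pairs (10.4%) and in 14.7% of single starts.

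Distance between the starts ran from 8 to 999 bases, with a median of 480. The 4 closest pairs, at most 100 bases apart, were all mitochondrial and had no member site, while the nuclear pairs were all over 100 bases apart, with a median of 481.5. Levels averaged 12.4% ± 19.0 in ChIP-bisulfite and 14.2% ± 17.5 in RRBS where the starts were over 100 and up to 300 bases apart (34 pairs), 16.4% ± 22.7 and 18.3% ± 22.4 at over 300 and up to 500 bases (57 pairs), and 23.99% ± 28.5 and 24.1% ± 28.8 at over 500 bases (85 pairs). Just inside the limit of the rule, pairs 800 to 1000 bases apart averaged 30.4% in ChIP-bisulfite and 33.4% in RRBS (27 pairs with sites), and just outside it, at over 1000 and up to 1500 bases, 25.7% and 23.7% (71 pairs). Another 29 gene pairs on opposite strands had the plus-strand start left of the minus-strand start, so that the genes overlap at their starts. Their means were 25.6% ± 38.0 and 23.9% ± 27.4 over 17 pairs with sites.

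The 2 sides of a promoter often differed. Among 60 pairs with sites inside both genes, the sides were at least 40 points apart in 30 pairs by ChIP-bisulfite and in 25 by RRBS, and at most 10 points apart in 19 pairs in either assay. Across these pairs the levels of both sides had a Spearman's rho of -0.07 in ChIP-bisulfite and 0.08 in RRBS, as a description over pairs that share libraries. Many sides rested on 1 site, and 10 pairs had at least 3 on each side. The sides were not matched for distance from their start. Among those 10, the largest difference in RRBS was on scaffold_72, with starts at 8328095 and 8328441. Its 6 sites inside the minus-strand gene ranged from 8% to 100% in RRBS and from 5% to 97% in ChIP-bisulfite, while the 6 sites inside the plus-strand gene were at 5% or less in RRBS and all at 0% in ChIP-bisulfite. The side means were 61% and 0.833% in RRBS, and 46.2% and 0% in ChIP-bisulfite. On scaffold_65, with starts at 1957708 and 1958696, the plus-strand side was the higher one, at 71.8% in ChIP-bisulfite and 62.7% in RRBS, against 2.50% and 5.75% on the minus-strand side. The minus-strand side of that pair was deeply read, with 78 to 122 RRBS reads a site.

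Pol II PS5 was common at these promoters. A Pol II PS5 peak overlapped the window of 1000 bases around either start in 155 of 241 pairs (64.3%, 95% exact binomial interval 57.9 to 70.4). The mitochondrial pairs are included here, and some of them had such a peak. Of all genes, 21.2% had a peak within 1000 bases of a start, and 3668 of 18334 single starts had one. Taken start by start, so that the window has the same width, 63.4% of 475 pair starts had a peak. With only the upper part of the peak list by the authors' score, above its median, 46.5% of pairs had one. Pol II PS5 peaks covered 38.2% of pair midpoints, against 0.830% and 2.07% of pairs at 1000 bases left and right of the midpoint. Counted pair by pair, 154 peaks were centred no more than 1000 bases upstream of either start, and a peak can count in more than 1 pair. Of the 154, 108 (70.1%) were centred between the starts, 25 inside the minus-strand gene and 21 inside the plus-strand gene. Their median distance from the midpoint was 144 bases. The limit had to hold for both starts, so these peaks came from a window around the midpoint that narrows as spacing grows. Their share between the starts and their distance from the midpoint are partly set by that choice. The median width of the 154 peaks was 406 bases, against 259 bases over the whole list. Of the pairs, 6 had more than 1 such peak.

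**Figure D3:**
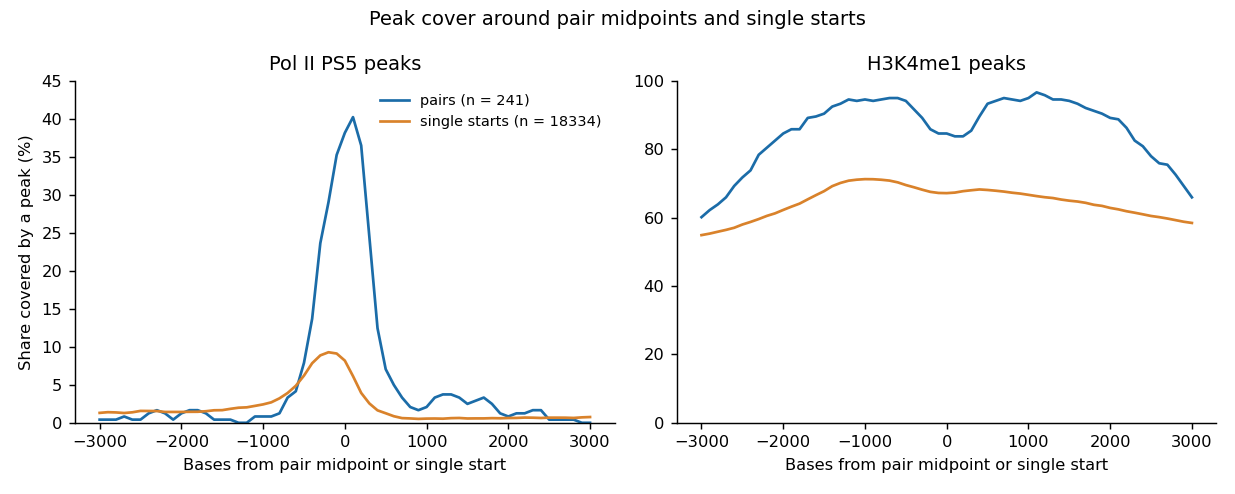
Share of pair midpoints (blue) and single starts (orange) covered by a Pol II PS5 peak (left) or an H3K4me1 peak (right), by distance in bases; single starts are turned so that the gene runs to the right. Pol II PS5 covers 38.2% of pair midpoints and 8.19% of single starts, and H3K4me1 cover dips to 84.6% at pair midpoints from 94.6% and 95.0% at 1000 bases on either side.

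H3K4me1 flanked the pairs and was less frequent in their middle. H3K4me1 peaks covered 94.6% of pairs at 1000 bases left of the midpoint, 84.6% at the midpoint and 95.0% at 1000 bases right of it. At single starts the cover was 71.3% at 1000 bases upstream, 67.2% at the start and 66.7% at 1000 bases downstream. Where a Pol II PS5 peak was present, cover was 96.8% on either side and 86.5% at the midpoint over 155 pairs, against 90.2%, 81.8% and 92.9% upstream, at and downstream of 3668 single starts with a peak. The 86 pairs without a Pol II PS5 peak had 90.7%, 81.4% and 91.9%. Single starts also had more Pol II PS5 cover at 500 bases upstream (6.21%) than at 500 bases downstream (1.25%), and the accuracy of the listed starts was not tested.

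The deposited table carries a Pol II score for each transcript, and both genes of a pair rarely had one. A score above 0 was listed for both genes in 43 pairs (17.8%), for 1 gene in 128 (53.1%) and for neither in 70 (29.0%). Of all genes, 37.9% had a score, and of the 474 pair genes 44.9%. How the score was made was not stated, so it was compared with the peak list. For 7202 of 7396 scored transcripts (97.4%), the score equalled within 1e-05 the mean score of consecutive Pol II PS5 peaks. These were counted from 1000 bases upstream of the start in the direction of the gene, with no limit at the gene's end. A count begun at 500 bases upstream matched 87.0%. The score thus appears to be a mean over peaks from the promoter onward, not a measure of the promoter alone. Whether the matched peaks lay inside the gene was not checked.

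A peak in the promoter was counted for only one gene of nearly every pair. In 147 pairs, mitochondrial ones among them, at least 1 peak was centred no more than 1000 bases upstream of either start. Such a peak could enter both scores. It was found in the score of 1 gene alone in 137 of these pairs, in both scores in 2, and in neither in 4, while 4 could not be resolved. Among 105 such pairs with 1 scored gene, the peak was part of that gene's score in all but 4. Among 39 such pairs with 2 scored genes, it was part of 1 score in 36. The other score matched peaks farther along in the direction of the other gene, except in a pair on scaffold_61 (952920 and 953137). There the other score belonged to another transcript of the gene and was not matched to peaks. In the 134 pairs with a single shared peak in 1 score, that gene had the nearer start in 61 (45.5%), and it was on the plus strand in 77. A listed score of 0 therefore occurred at many starts with Pol II PS5 nearby. It was listed for 114 of 300 pair genes with a peak within 1000 bases of the start (38.0%, 95% exact binomial interval 32.5 to 43.8), and for 165 of 3668 such single start genes (4.50%, 3.85 to 5.22).

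**Figure D4:**
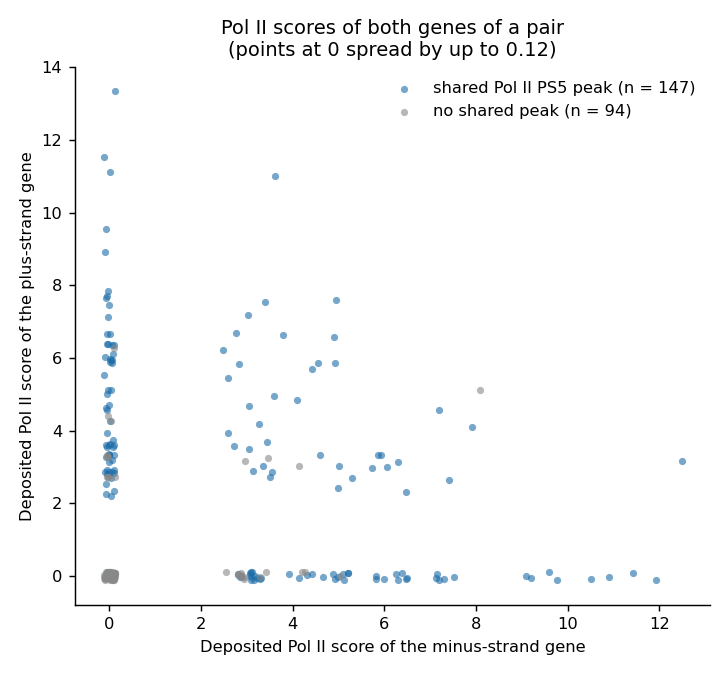
Deposited Pol II scores of the minus-strand gene (horizontal) and the plus-strand gene (vertical) of each of 241 pairs, in blue where a shared Pol II PS5 peak was present and in grey where it was not. Of the 147 pairs with a shared peak, 105 lie on one of the axes, with a score at 1 gene and 0 at the other.

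Scores on either side did not go together in size. Over the 43 pairs with both, Spearman's rho was -0.33, a description over pairs from the same libraries in which a shared peak entered mostly 1 of the scores. The higher score of a pair had a median of 5.74 and the lower one of 3.05. Sizes need care, since the peak list mixes scores written with up to 2 decimals (8033 of 67423 peaks, median 6.93) with longer ones (median 3.25), and whether both forms share a scale was not stated. Of the shared peaks of pairs, 59.7% had the short form, against 11.9% of all peaks.

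Mean methylation was lowest in pairs with 2 scored genes, and pairs varied widely within every class. Pairs with both genes scored averaged 12.1% ± 17.9 in ChIP-bisulfite and 13.4% ± 18.8 in RRBS (SD, 31 pairs with sites). With 1 scored gene the means were 20.4% ± 26.8 and 19.3% ± 24.2 (95 pairs), and with neither 21.6% ± 26.3 and 26.4% ± 29.1 (50 pairs). The SE of these means over pairs was 2.48 to 4.11 points. By peaks, the 110 pairs with sites and a Pol II PS5 peak in the window averaged 17.5% ± 24.3 in ChIP-bisulfite and 16.7% ± 22.3 in RRBS, against 22.3% ± 27.1 and 26.4% ± 28.4 in 66 pairs without one. Single starts with a peak averaged 20.5% ± 30.6 and 22.2% ± 28.6 (2073 genes), and those without 38.97% ± 39.6 and 44.3% ± 36.1 (4544 genes). Pairs and single starts thus lay closer together where a peak was present. The 66 member sites inside a Pol II PS5 peak averaged 0.288% in ChIP-bisulfite and 0.924% in RRBS, against 18.3% and 19.3% at the 739 others. These sites were not matched for distance from a start, so peak and position cannot be told apart in this contrast.

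**Figure D5:**
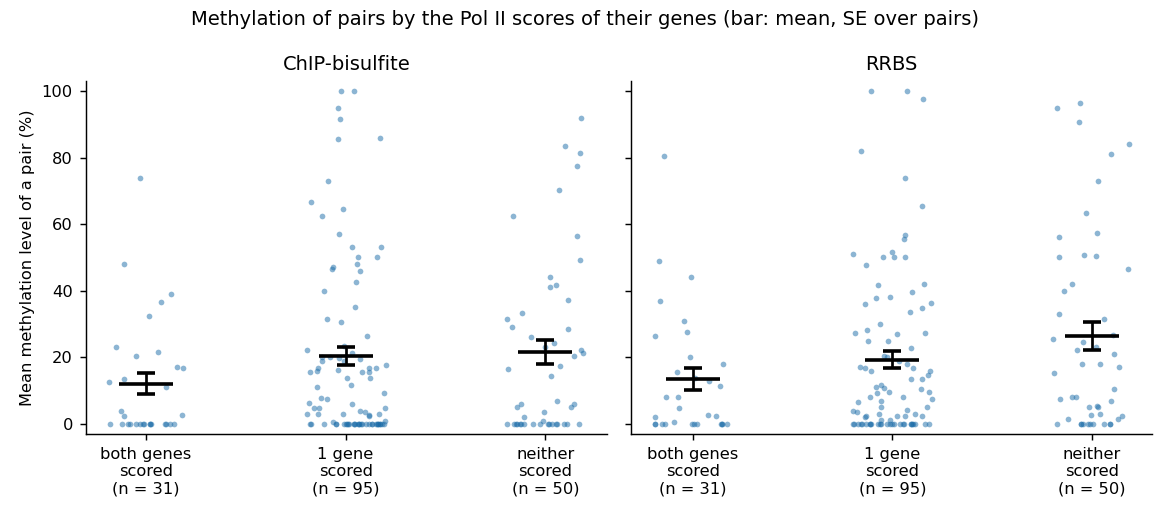
Mean methylation level of each pair with sites (points) by the number of its genes with a Pol II score, for ChIP-bisulfite (left) and RRBS (right). Black bars give the mean with its SE over pairs, and the means are 12.1%, 20.4% and 21.6% (ChIP-bisulfite), and 13.4%, 19.3% and 26.4% (RRBS), with points spread over most of the scale in the middle class.

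DNA between the starts was low with or without Pol II. There the level was 1.53% ± 6.11 in ChIP-bisulfite and 4.30% ± 11.99 in RRBS in 27 pairs with a peak, against 0.277% ± 1.04 and 2.87% ± 7.31 in 14 pairs without one. Outside the starts, pairs with a peak averaged 19.6% ± 26.3 in ChIP-bisulfite and 18.7% ± 24.4 in RRBS (104 pairs). Pairs without one averaged 26.97% ± 30.6 and 32.3% ± 31.9 (64 pairs), with a wide spread in both classes and no test of the difference. Upstream DNA within 250 bases of single starts with a peak averaged 12.6% ± 28.9 in ChIP-bisulfite and 15.5% ± 28.1 in RRBS (250 genes). Where 1 gene of a pair was scored and both genes held sites (35 pairs), the side of the scored gene averaged 39.8% in ChIP-bisulfite and 33.2% in RRBS, against 24.1% and 24.3% on the side of the gene without a score. The scored side was higher in 21 pairs and lower in 11 in ChIP-bisulfite, and higher in 16 and lower in 14 in RRBS. The pair differences, scored side minus the other, averaged 15.7 points (SD 51.98) in ChIP-bisulfite and 8.90 points (SD 47.1) in RRBS. These sides were not matched for distance from their start either.

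Both bisulfite assays gave nearly the same mean level over all pairs. ChIP-bisulfite minus RRBS averaged -1.01 points (SD 14.1, 176 pairs), with a median of 0. At single starts it averaged -4.18 points (SD 27.8). By Pol II PS5 peaks, the difference was 0.834 points (SD 13.2) in 110 pairs with a peak and -4.10 points (SD 15.1) in 66 pairs without. The RRBS level of these pairs also differed (16.7% and 26.4%), and neither contrast was tested. Single starts were at -1.68 points (SD 21.6) with a peak and -5.32 points (SD 30.1) without. Of the member sites, 60.5% had equal values in both assays, 23.7% were lower in ChIP-bisulfite and 15.8% higher. Most of the equal sites were at 0% in both assays, which held for 57.3% of the member sites. At single starts 46.6% of sites were equal and 41.6% were at 0% in both. Over all sites of the table these shares were 27.0% and 15.4%. The authors' list of differentially methylated sites, built on a level of 30% or less by one assay and 70% or more by the other, held 18 members lower in ChIP-bisulfite (2.24%, 95% exact binomial interval 1.33 to 3.51) and 13 higher (1.61%, 0.863 to 2.75). Over all sites of the table the shares were 10.2% and 2.93%. The level sets who can be listed. Among sites at 70% or more in RRBS, 18 of 92 members (19.6%) were listed lower, against 22.8% at single starts and 23.8% of all sites. Among those at 30% or less, 13 of 624 members (2.08%) were listed higher, against 4.34% at single starts and 9.02% of all sites. All but 1 of the higher and 4 of the lower members lay 500 to 1000 bases inside a gene.

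Among pairs with at least 3 sites, those with the highest lower score of both genes were mostly low in methylation. The first of them was ENSCPOG00000004647 and ENSCPOG00000004642 on scaffold_124, with starts at 3396147 and 3396380 and scores of 4.43 and 5.70. All 4 of its sites, read 22 to 36 times in RRBS, were at 0% in both assays. The next, on scaffold_13 (8843900 and 8844356), had 6 sites at 0% in ChIP-bisulfite, and in RRBS all were at 0% except a site at 29%, 6 bases to the right of the minus-strand start. Over the first 6 pairs, 4 were at 0% in ChIP-bisulfite at every site, and the highest mean, 39% by ChIP-bisulfite and 37% by RRBS, was on scaffold_27 (11943366 and 11943660). The promoter peak was part of 1 score alone in each of the 6, so the lower score does not measure Pol II at the promoter. Without the limit of 3 sites, a pair on scaffold_10 (31654676 and 31655497), chosen after its values were seen, came first among pairs with sites, with scores of 4.95 and 7.59, and its 2 sites averaged 48% by ChIP-bisulfite and 49% by RRBS. Among pairs with at least 3 sites, the largest ratio between both scores as listed was 3.96, on scaffold_87 (6779618 and 6780510), with 12.5 at the minus-strand gene and 3.16 at the plus-strand gene. That ratio sets a score of 2 decimals against a longer one, whose scales may differ, so the order of the ratios is not secure. The shared peak was in the score of the minus-strand gene alone, and its 3 sites averaged 2.67% by ChIP-bisulfite and 15.7% by RRBS.

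The most methylated pairs had their sites away from the starts. The 6 pairs with the highest RRBS level among those with at least 3 sites ranged from 65.4% to 97.7% in RRBS and from 48% to 91.7% in ChIP-bisulfite. In 5 of them the nearest site lay 555 to 757 bases from a start, and in the other, on scaffold_95 (3478653 and 3479288), 288 bases. The first, on scaffold_15 (38297536 and 38298292), had 3 sites at 100%, 96% and 79% by ChIP-bisulfite, and at 100%, 100% and 93% by RRBS, all inside the minus-strand gene and read 10 to 15 times. Both genes were scored in 17.8% of all pairs, and among the 6 in a single pair. That pair was ENSCPOG00000023140 and ENSCPOG00000023921 on scaffold_86 (2869974 and 2870421, scores 6.48 and 2.30). Its 6 sites, all inside the plus-strand gene and read 20 to 63 times, ranged from 0% to 100% in ChIP-bisulfite and from 40% to 100% in RRBS.

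A few pairs differed between assays. Over all 176 pairs ChIP-bisulfite minus RRBS ran from -79 to 58 points, with both ends set by pairs with 1 site. Among pairs with at least 3 sites, the most negative difference was on scaffold_108 (1658637 and 1658950), where 3 sites had levels of 0%, 0% and 14% by ChIP-bisulfite against 0%, 46% and 73% by RRBS, with 27, 59 and 48 RRBS reads. On scaffold_45 (12357382 and 12357849) the 4 sites within 449 bases of a start were at 0% in ChIP-bisulfite and at most 5% in RRBS, while the outer ones were at 18% and 0% by ChIP-bisulfite and at 100% and 64% by RRBS. The 5 most negative mean differences of these pairs lay between -35 and -20.3 points. The most positive one, 42.7 points, was on scaffold_61 (9241096 and 9241697), where 2 sites 2 bases apart, each with 35 RRBS reads, were at 70% by ChIP-bisulfite and 6% by RRBS and the other one was at 0% by both.

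Pairs without member sites were seen in RRBS alone, through the authors' averages over whole H3K4me1 peaks. For peaks with at least 3 C positions that overlapped a pair's window, the RRBS level averaged 30.7% ± 22.9 in 175 pairs with member sites and 48.2% ± 24.2 in 28 pairs without. These averages reach beyond the window of 1000 bases. Of the 65 pairs without member sites, 28 had such a peak. These pairs had no site of the table within 1000 bases of a start. Position and the kind of pair therefore cannot be told apart in this contrast. Whether the levels given above for member sites come from less methylated pairs was not tested.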

How the data were processed

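Methylation levels of CG sites were deposited by the authors as whole percent, per the file headers, with a Pol II PS5 score per transcript, a list of differentially methylated sites and peak scores. RRBS reads per C position were deposited as counts of at least 10, and reads per H3K4me1 peak as estimated counts beside a level in percent. Per the submitters' processing notes, Bowtie2 2.2.3, SAMtools 1.1, MACS2, HOMER 4.6, Bismark 0.12.5, BSMAP 2.74 and methylKit were used, with no role or order given. All deposited values pooled the 3 animals, and nothing says how the libraries were weighted. ChIP-bisulfite columns of the peak averages were not used.

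Each site was counted once among the 805 members, and 12 sites in more than 1 pair window entered the mean of each such pair. Levels were averaged over the sites of a pair and then over pairs, with Python 3.11.15, pandas 2.3.3, NumPy 2.4.6 and SciPy 1.17.1. The finding of pairs was tested on simulated data. Intervals are exact binomial and cover counting error only. A gene's score was the highest of its transcripts. Named pairs have at least 3 sites and lead in RRBS level, in the lower Pol II score, in the score ratio, in the difference between assays or in that between sides. Of 19244 gene IDs, 0 matched the RefSeq table of another assembly, so the planned gene lists, marker checks and textbook pairs were not analysed, and promoter motifs were not analysed either. The members, lists and measures were chosen with earlier results of these data known. With pooled animals no test between samples was possible.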

Additional observations from a re-analysis of the deposited data

How the results depend on the processing

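No paired analysis was possible because the deposited values pool the animals, so replicate numbers enter no value, and no library could be left out. The lower level of pairs than of single starts kept its direction in both assays in all 10 alternatives, from -25.9 to -4.63 points in ChIP-bisulfite and from -29.7 to -7.70 points in RRBS, as did the assay difference at pairs (-2.81 to -0.388 points, 9 alternatives). The site window moved the levels of pairs by over 1.5 times: they averaged 6.26% in ChIP-bisulfite and 7.56% in RRBS within 500 bases of a start and 5.98% and 7.50% within 250 bases, in place of 19.3% and 20.3%. With starts at most 300 bases apart they averaged 11.5% and 13.4%. The difference from single starts shrank to -8.22 and -11.1 points as a mean over all sites, and to -4.63 and -7.70 points with at least 3 sites. At least 20 RRBS reads left 19.3% and 22.1%. Of 134 recomputed values, 18 moved beyond the SD over single pairs, the binomial interval or 1.5 times a count. That SD is wide for a mean, so the other 116 include the moves above. With starts at most 300 bases apart there were 46 pairs with 141 sites, of which 0% were listed higher (0 of 141). Within 500 bases of a start there were 441 sites, 0.907% listed lower and 0.227% higher. Within 250 bases there were 233 sites, 0.858% listed lower and 0% higher. At least 20 RRBS reads left 308 sites. By a difference of at least 40 points, 5.22% of sites were lower and 5.34% higher in place of the list. With the median score as threshold, 10 pairs had both genes scored and 133 neither, and by shared Pol II PS5 peaks, added after seeing the data, 147 pairs had both starts near Pol II. With the upper part of the peaks 46.5% of pairs had one. With at least 5 sites, 2 pairs were at 70% or more and 34 at 10% or less in RRBS. Without the mitochondrial pairs, also added later, no level moved, since they hold no site. The Pol II counts were not recomputed without them. A single site rests on a median of 16 RRBS reads, and on an unknown depth in ChIP-bisulfite.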
